A study of Homo sapiens and Mus musculus with 4 samples.

Results

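The 36 genes described here encode the core machinery of autophagy, some of its cargo receptors, and TFEB, a transcription factor that drives autophagy genes. They were chosen by name for their roles, with earlier results of these data known. All 36 were found by symbol among the 20037 protein-coding genes that RefSeq's table for GRCh38.p14 places on chromosomes 1 to 22, X and Y. A gene counted as having a peak where the centre of an ATF4 peak lay inside its span or within 1 kb of either end. ATF4 occupancy was measured by chromatin immunoprecipitation and sequencing in KG1a, an acute myeloid leukaemia cell line of human origin cultured with 20% fetal bovine serum, and in bone marrow cells from C57BL/6 mice. Both sources gave a pair of libraries, 1 precipitated with antibody against ATF4 and 1 input without antibody, and the authors deposited 1 peak list per pair. The labels name no treatment, stress or altered genotype for either source and no age for the mice, and they do not say how many cultures or animals a library came from. The lists carry positions only, so neither the labelled cell types nor the depth could be checked, and with 1 list per source there is no replicate error. All results below come from the KG1a list of 873 peaks, 869 of them on chromosomes. The mouse list holds 83088 peaks in GRCm38 coordinates, but mouse gene positions were not used here and the mouse orthologues were not analysed here.

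Autophagy wraps cytoplasm, organelles or protein aggregates in a double membrane, the phagophore, which closes into an autophagosome and fuses with the lysosome. Blood stem cells rely on it to clear mitochondria and to survive metabolic stress. ATF4 is a basic leucine zipper factor whose translation rises when amino acids are short or the endoplasmic reticulum is stressed. It binds composite C/EBP-ATF response elements as a dimer. In other stressed cells it has been linked to transcription of autophagy genes such as MAP1LC3B, SQSTM1 and ATG12.

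In KG1a cells 3 of the 36 autophagy genes had an ATF4 peak: AMBRA1, ATG2A and ATG4D. That is 8.33% of the genes, where 2.44% of all protein-coding genes, 489 of 20037, had one by the same definition. At the share of all genes 0.879 of the 36 would have a peak, and 1 gene more or less moves the share of this list by 2.78 percentage points. The AMBRA1 and ATG2A peaks lay far from the annotated starts of their genes, and the ATG4D peak lay near the low-coordinate end of its gene. The other 33 genes had no listed peak, among them MAP1LC3B, SQSTM1, ATG12, ATG5, ATG7, BECN1, ULK1 and TFEB itself, and the number of genes with more than 1 peak was 0.

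AMBRA1 encodes a scaffold that holds the Beclin 1 complex and promotes autophagy through ULK1. The gene spans 198 kb on chromosome 11, from 46396412 to 46594023 on the minus strand. Its peak ran from 46459484 to 46459811, 328 bp wide, and its centre lay 63.2 kb inside the low-coordinate end, 68.0% of the way along the gene from the start. Of the 2 annotated starts of AMBRA1 the nearer was 128 kb upstream of the peak. No other protein-coding gene lay closer than CHRM4, 67.9 kb away.

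ATG2A encodes a lipid transfer protein that carries phospholipids from the endoplasmic reticulum to the growing phagophore. The gene spans 22.7 kb on chromosome 11, from 64894546 to 64917209, also on the minus strand. The peak ran from 64895267 to 64895603 and was 337 bp wide. Its centre lay 889 bp inside the low-coordinate end, which is the far end of the gene: the single annotated start was 21.8 kb upstream, and 96.1% of the span lay between start and peak. The nearest other protein-coding gene, EHD1, was 15.7 kb from the centre, closer than the ATG2A start.

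ATG4D encodes a cysteine protease that trims and recycles proteins of the ATG8 family. It spans 9.52 kb on chromosome 19, from 10543904 to 10553418. The peak, 311 bp wide, ran from 10544507 to 10544817 with its centre 758 bp inside the low-coordinate end. The promoter table used here holds no entry for ATG4D, RB1CC1, UVRAG or MAP1LC3A, so no distance from a start is given for these genes. ATG2A and ATG4D were the genes counted within 1 kb of an end, 2 of 36 or 5.56%, against 0.509% of all protein-coding genes (102 of 20037). At the share of all genes 0.183 of the 36 would be counted. Both peak centres lay more than 500 bp from the gene end, so with a limit of 500 bp the count was 0. The next nearest autophagy gene, ATG4C, was 57.3 kb from a peak, so no gene fell just outside the limit of 1 kb.

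**Figure D1:**
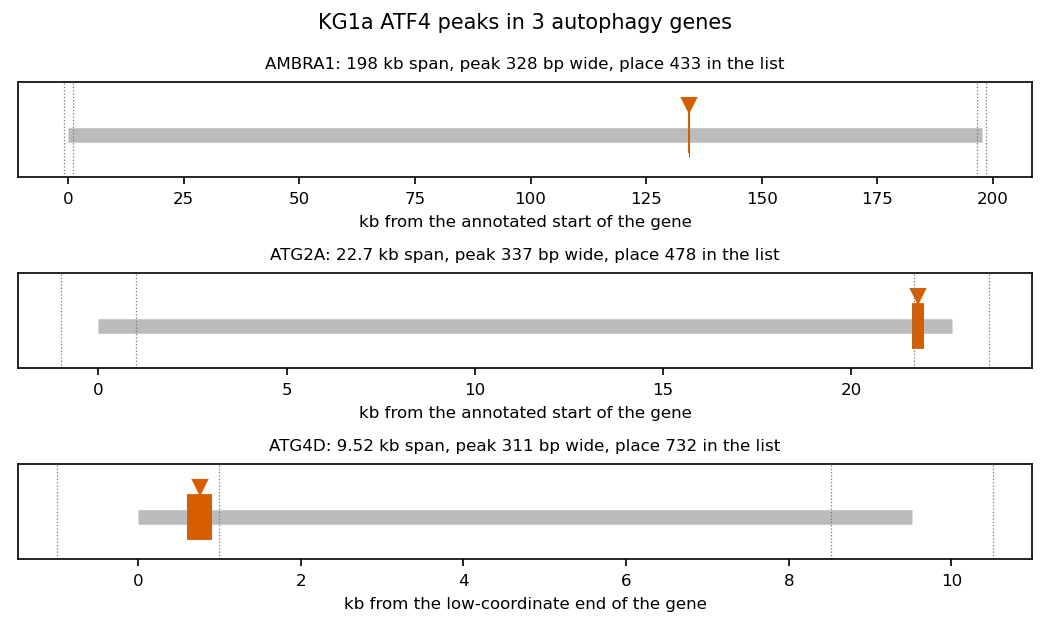
Maps of AMBRA1, ATG2A and ATG4D (grey bars, drawn to scale for each gene) with the KG1a ATF4 peak (orange, triangle at its centre). The horizontal axis is the distance in kb from the annotated start, or from the low-coordinate end for ATG4D, and dotted lines mark 1 kb to each side of both ends; the ATG2A peak lies 889 bp from the far end and the ATG4D peak 758 bp from the low-coordinate end.

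Distances from annotated starts could be measured for 32 of the 36 genes, which leaves out ATG4D, whose peak lies 758 bp from a gene end. Of the 32 genes that RefSeq's promoter table lists, none (0) had a peak centre within 1 kb of a start, where 0.467% of the 15843 protein-coding genes with an entry had one. Within 5 kb the count was 0 as well, against 0.89% of all genes. With shares this low a list of 32 genes cannot show a deficit. Among these 32 genes, the starts that came closest to a peak were those of ATG2A at 21.8 kb, ATG4C at 57.3 kb and AMBRA1 at 128 kb. ATG4D could not be ranked.

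The peaks at autophagy genes were of ordinary or small width and stood in the middle or late part of the deposited order. Their widths of 328, 337 and 311 bp were all below the list's median of 341 bp, the ATG2A peak only just, and the ATG4D peak was close to the list's minimum of 310 bp. The AMBRA1 peak stood in place 433, the ATG2A peak in place 478 and the ATG4D peak in place 732 of 873. None was in the first 25% of the list or among the widest 25%, so both of those parts hold 0 of the 36 genes, against 0.709% and 0.654% of all protein-coding genes. The labels do not say what this order reflects.

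**Figure D2:**
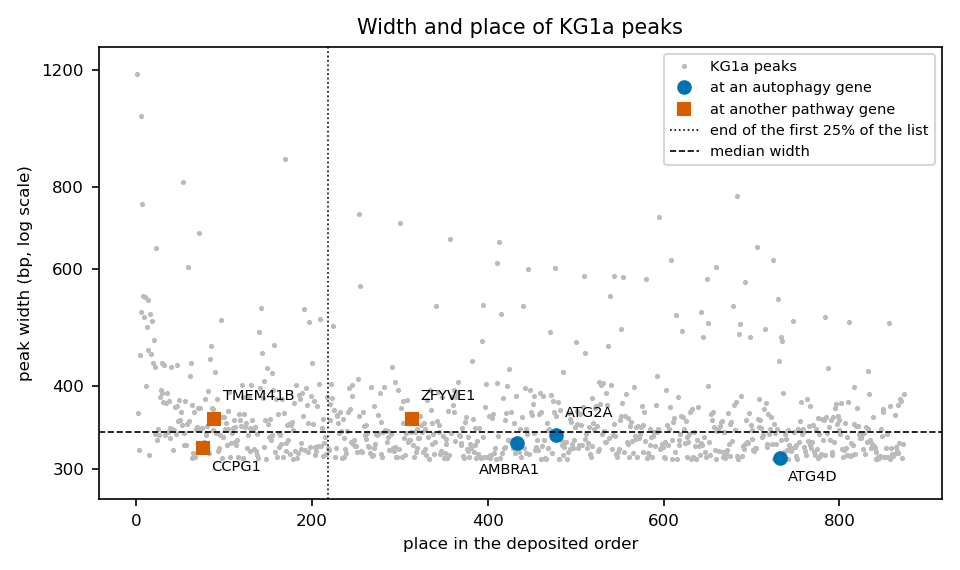
Width in bp (log scale) of each of the 873 KG1a peaks against its place in the deposited order, with the peaks at autophagy genes (blue circles) and at other pathway genes (orange squares) named. The dotted line ends the first 25% of the list and the dashed line is the median width of 341 bp; AMBRA1, ATG2A and ATG4D lie right of the first and below the second.

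Gene length and chromosome were set beside these counts. The autophagy genes had a median span of 39.8 kb, against 24.1 kb for all protein-coding genes, and long genes had a peak more often. Among all genes the share with a peak was 0.544% up to 10 kb, 1.16% from 10 to 30 kb, 3.06% from 30 to 100 kb and 6.73% above 100 kb. With the autophagy genes spread over these classes as they are, 1.04 of the 36 would have a peak, in place of 0.879. The genes with a peak were 1 of the 2 genes up to 10 kb (ATG4D), 1 of the 12 from 10 to 30 kb (ATG2A), 0 of the 16 from 30 to 100 kb and 1 of the 6 above 100 kb (AMBRA1). Chromosome 11 held AMBRA1 and ATG2A, 2 of its 5 autophagy genes, where 2.77% of its 1301 protein-coding genes had a peak. On the other chromosomes 1 of 31 autophagy genes had one, or 3.23%, against 2.42% of all genes there. The part of length or chromosome in the counts was not tested.

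The genes are described by role below, with the distance to the nearest peak. At the share of 2.44% for all protein-coding genes fewer than 1 gene with a peak is expected in each role, from 0.0244 for TFEB alone to 0.171 for the 7 conjugation genes, so a role with no peak is what any few genes would show.

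The initiation complex receives the signal of starvation through its kinase. ULK1, the kinase, lay 266 kb from its nearest peak and its relative ULK2 lay 8.69 Mb away. ATG13, an adaptor of the kinase, lay 158 kb away, with the AMBRA1 peak as its nearest. RB1CC1, also called FIP200, the scaffold of the complex, was 610 kb from a peak, and ATG101, which stabilises ATG13, was 2.04 Mb from one.

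The phosphatidylinositol 3-kinase complex marks the phagophore membrane with a lipid, PI3P. Besides AMBRA1, its genes lay from 70.9 kb to 1.54 Mb from a peak. UVRAG, which directs the complex to endosomes and maturing autophagosomes, was the nearest at 70.9 kb. The catalytic subunit PIK3C3 lay 162 kb, the core subunit BECN1 463 kb, the membrane-targeting subunit ATG14 855 kb and the regulatory subunit PIK3R4 1.54 Mb from a peak. The median of the 6 genes was 312 kb.

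Genes of lipid supply and PI3P binding had the lowest median distance of the 8 roles, with a median of 178 kb over 5 genes. ATG2B, the paralogue of ATG2A with the same lipid transfer function, had no peak and lay 131 kb from one. WIPI1 and WIPI2, which read PI3P, lay 178 and 191 kb away. ATG9A, a lipid scramblase carried on vesicles, lay 521 kb away. This order of groups rests on few genes each and was not tested.

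The conjugation system attaches ATG8 proteins to lipid. ATG3, an E2-like enzyme, was the nearest at 198 kb. ATG16L2, a relative of the scaffold ATG16L1, lay 525 kb away. Distances were similar for ATG7, the E1-like enzyme, at 558 kb and for ATG5, the partner of ATG12, at 592 kb, and ATG10, another E2-like enzyme, followed at 778 kb. ATG16L1 lay 3.69 Mb and ATG12, a ubiquitin-like protein, 7.52 Mb from the nearest listed peak.

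The 4 ATG4 proteases, which process ATG8 proteins, spanned the whole range of distances. ATG4D held a peak and ATG4C lay 57.3 kb from one, whereas ATG4B lay 3.59 Mb away. ATG4A, on chromosome X, was the farthest of all 36 genes at 19.1 Mb.

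ATG8 proteins coat the phagophore and recruit cargo. MAP1LC3B, the most widely used marker of autophagosomes, lay 374 kb from a peak of 1023 bp in place 6 of the list. The protein-coding gene nearest to that peak was KLHDC4, 13.0 kb from its centre. MAP1LC3A lay 435 kb, GABARAPL2 765 kb, GABARAP 1.38 Mb and GABARAPL1 2.50 Mb from a peak.

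Cargo receptors link ubiquitin-tagged material to ATG8 proteins. NBR1 lay 823 kb, OPTN 1.49 Mb and SQSTM1, also known as p62, 3.08 Mb away. BECN1 and NBR1 shared their nearest peak. TFEB, the transcription factor that drives lysosomal and autophagy genes, lay 196 kb from a peak.

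Over the whole list, the median distance from an autophagy gene to the nearest peak was 542 kb (quartiles 188 and 1500 kb), against 961 kb (quartiles 355 and 2290 kb) for all protein-coding genes. Within 100 kb lay 5 of the 36, or 13.9%, against 9.95% of the 19974 protein-coding genes on chromosomes that hold a peak, and within 1 Mb lay 25, or 69.4%, against 51.3%. Measured from annotated starts the medians were 679 and 994 kb. In the first 25% of the deposited list the order was the other way, as the median was 5150 kb for autophagy genes and 4850 kb for all genes. These distances are far beyond a promoter, and genes on the same chromosome share peaks, with 34 different nearest peaks for the 36 genes.

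**Figure D3:**
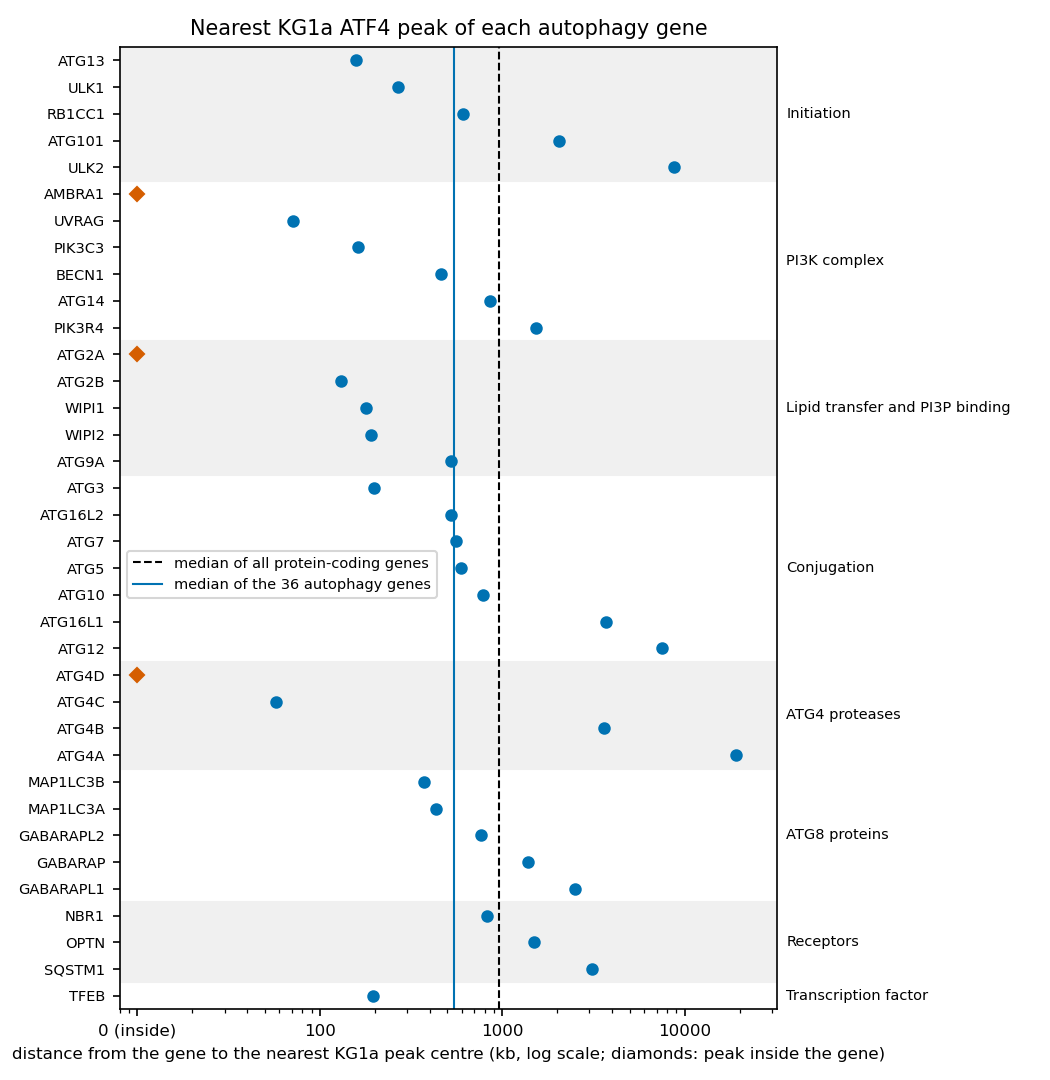
Distance in kb (log scale) from each of the 36 autophagy genes to the centre of its nearest KG1a ATF4 peak, grouped by role, with diamonds at the left edge for the genes with a peak inside. The median of the autophagy genes (blue line, 542 kb) lies left of that of all protein-coding genes (dashed line, 961 kb), and ATG4A, ULK2 and ATG12 lie farthest right.

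**Figure D4:**
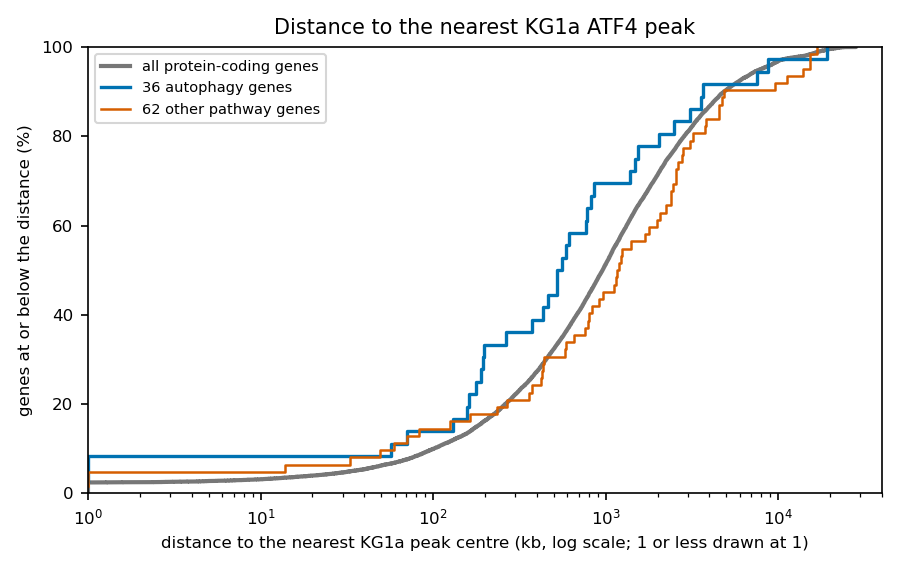
Percent of genes with a KG1a peak centre at or below a given distance in kb (log scale), for the 36 autophagy genes, 62 other genes of the pathway and all protein-coding genes on chromosomes that hold a peak. Between about 100 kb and 1 Mb the curve of the autophagy genes runs above that of all genes, with 69.4 against 51.3% at 1 Mb.

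Promoter sequences of the 32 autophagy genes in RefSeq's table (GRCh38.p14, 250 bases before to 50 after each start, 300 in all) were searched for 3 elements on both strands. The C/EBP-ATF response element core, TGATGNAA (TTNCATCA on the other strand), was found in 0 of the 32 genes and in 3.6% of the 15843 protein-coding genes with a promoter entry. The cyclic AMP response element TGACGTCA, which reads the same on both strands and can bind ATF dimers, was found in GABARAPL1, 1 of 32 genes, and in 3.0% of all. The core of the element bound by TFEB, TCACGTGA, also the same on both strands, was found in ATG3, 1 of 32, and in 1.65% of all. At shares this low a list of 32 genes cannot show a lack of an element, and no test was made. The matches lay in different genes and did not overlap. Both sequences are shown, 5′ to 3′ on the strand of the gene, because they are the autophagy promoters that hold one of these elements, which is in capitals. For GABARAPL1 these are the 250 bases before the start (chr12:10212627-10212876, plus strand), and the element begins 30 bases before the start. For ATG3 these are 30 bases on each side of the start (chr3:112561933-112561992, minus strand), and the element begins at base 5 of the transcript.
GABARAPL1: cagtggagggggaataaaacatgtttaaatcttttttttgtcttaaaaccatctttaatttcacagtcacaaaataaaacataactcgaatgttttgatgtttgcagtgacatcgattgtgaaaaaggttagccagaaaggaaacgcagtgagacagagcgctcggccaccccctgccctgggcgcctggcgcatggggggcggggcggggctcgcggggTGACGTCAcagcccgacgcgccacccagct
ATG3: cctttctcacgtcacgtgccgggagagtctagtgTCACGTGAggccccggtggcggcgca
The start of GABARAPL1 lay 2.51 Mb and that of ATG3 228 kb from the nearest KG1a peak, so neither element was under a listed peak. A match is a description of letters and not a bound site, and a window without one may hold related sequences that were not searched.

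The 62 other genes of the pathway act as further cargo receptors, with phagophore lipids, in fusion, in the lysosome or as regulators. Of these, 3 had a KG1a peak: TMEM41B, ZFYVE1 and CCPG1. That is 4.84%, against 2.44% of all protein-coding genes. With these genes spread over the length classes as they are, 1.81 of the 62 would have a peak. Their median distance to a peak was 1180 kb, against 961 kb for all genes, and 45.2% lay within 1 Mb, against 51.3%. Peaks were found at 2 of 10 genes of phagophore lipids and 1 of 13 receptors, and at 0 of 15 fusion, 0 of 10 lysosome and 0 of 14 regulator genes, and fewer than 1 was expected in each of these groups at the share of all genes. Unlike the AMBRA1 and ATG2A peaks, those of TMEM41B and ZFYVE1 were centred just upstream of the annotated start, by 89 and 86 bp. TMEM41B encodes a lipid scramblase of the endoplasmic reticulum needed to build the phagophore, and its peak ran on chromosome 11 from 9314504 to 9314860, 357 bp wide, in place 89 of the list. ZFYVE1 encodes DFCP1, a PI3P-binding protein at the site where phagophores form, and its peak ran on chromosome 14 from 73027014 to 73027370, also 357 bp wide, in place 314. CCPG1 encodes a receptor for autophagy of the endoplasmic reticulum. Its peak, on chromosome 15 from 55403473 to 55403794 in place 76, lay inside the gene 4.73 kb downstream of the start. The CCPG1 peak also lay inside the noncoding gene DNAAF4-CCPG1, and 4.86 kb from the protein-coding gene PIERCE2. Of these other pathway genes with a promoter entry, 2 of 46, or 4.35%, had a peak within 1 kb of a start. The share of all protein-coding genes with an entry was 0.467%, 74 of 15843. No test was made between the lists, and both were chosen with earlier results of these data known.

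Both promoters lay wholly under their peaks and are the only ones under a peak among autophagy and pathway genes with a promoter entry. They are shown as the 250 bases before the start, with capitals for the bases within 25 of the peak centre (RefSeq, GRCh38.p14, both minus strand, chr11:9314594-9314843 and chr14:73027107-73027356). Of the 3 elements searched, 0 were found in either promoter. Over the 46 other pathway genes with a promoter entry, TGATGNAA was found in 2 (4.35%), TGACGTCA in 3 (6.52%) and TCACGTGA in 5 (10.9%). The shares of all genes were 3.6, 3.0 and 1.65%, and the differences were not tested.
TMEM41B: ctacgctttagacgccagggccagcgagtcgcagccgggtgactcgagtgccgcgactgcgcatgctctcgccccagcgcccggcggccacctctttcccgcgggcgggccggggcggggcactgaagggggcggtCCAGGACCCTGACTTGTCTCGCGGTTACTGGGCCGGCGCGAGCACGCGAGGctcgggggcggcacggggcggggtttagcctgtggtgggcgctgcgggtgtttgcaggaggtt
ZFYVE1: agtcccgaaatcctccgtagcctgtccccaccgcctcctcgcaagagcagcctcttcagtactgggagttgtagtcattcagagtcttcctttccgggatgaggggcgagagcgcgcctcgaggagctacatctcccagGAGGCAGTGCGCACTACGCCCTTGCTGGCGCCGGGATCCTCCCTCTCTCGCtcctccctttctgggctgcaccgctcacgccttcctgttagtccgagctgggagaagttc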

How the data were processed

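ChIP-seq of ATF4 was described for 4 libraries in 4 groups of 1. The tools named in the submitters' processing notes are CASAVA 1.4, Bowtie2, MACS2 and deepTools, and the builds are GRCh38 and GRCm38. Settings, peak threshold and read depth were not given in the sources used here. Peak positions came as the authors deposited them, in 3 columns with chromosome, start and end in bases. Starts were read as counted from 0 and are printed counted from 1.

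Each KG1a peak was reduced to its centre and placed against RefSeq's gene table for GRCh38.p14, which shares chromosome coordinates with GRCh38. Starts and strands came from RefSeq's promoter table, and with several starts the nearest was used. The 63 genes on chromosome Y, which holds no KG1a peak, have no distance. Counts are set beside all protein-coding genes. With 1 list per source, no test was made. The members, gene lists and motifs were chosen with earlier results of these data known. Besides the 12 genes fixed by name, those with a peak, and the 5 nearest and 5 farthest without one, the remaining members were named so that each has its value. The assignment and motif code was tested on simulated data (Python 3.11.15, pandas 2.3.3, numpy 2.4.6). Alternatives were other distances, overlap in place of centres, nearest genes, parts of the list, autosomes and, chosen after seeing the data, chromosome 11 left out. The mouse settings of the plan were not run.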

Additional observations from a re-analysis of the deposited data

How the results depend on the processing

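The count of 3 autophagy genes with a peak, AMBRA1, ATG2A and ATG4D, was 3 under 6 alternatives: 500 bp or 5 kb in place of 1 kb, any overlap of the peak, autosomes alone, the nearest gene within 50 kb, and the span alone. Under these the share of all genes ran from 2.14% (span alone) to 3.15% (nearest gene within 50 kb). The count was 0 in the widest 25% (0.654% of all genes) and 0 in the first 25% of the list (0.709%). Without chromosome 11 it was 1 (ATG4D), against 2.42% of all genes. The count of 2 genes within 1 kb of an end was 2 with 5 kb (1.09% of all genes), with any overlap (0.564%) and on autosomes alone (0.528%). It was 0 with 500 bp (0.359%), 1 without chromosome 11 (0.486%), 0 in the widest 25% (0.195%) and 0 in the first 25% (0.225%). These parts of the list hold fewer peaks by construction. The 3 other pathway genes became 0 in the widest 25% (0.654% of all genes), and 2 (CCPG1 and TMEM41B) in the first 25% (3.23%, against 0.709% of all genes). The median distance of autophagy genes was 542 kb to the nearer gene end as well, 610 kb without chromosome 11 (990 kb for all genes), 1820 kb in the widest 25% (3850 kb for all genes) and 5150 kb in the first 25% (4850 kb). No paired analysis was possible because each source has 1 list. Mouse alternatives were not run. Depth is unknown, so a gene without a listed peak cannot be said to lack ATF4.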

Other observations

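Of the 33 autophagy genes without a peak of their own, 15 have their nearest KG1a peak inside another protein-coding gene. That is 45.5%, against 55.3% of all 19485 protein-coding genes without a peak on chromosomes that hold one. BECN1 and NBR1 share a peak inside STAT3, the gene of a cytokine-activated transcription factor, at 463 and 823 kb. The nearest peak of MAP1LC3A lies inside EIF2S2, which encodes the beta subunit of the initiation factor eIF2, 435 kb away. For ATG3 it lies inside CD200, an immune checkpoint ligand gene, and for TFEB inside BYSL, a ribosome assembly gene.

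The ATG2A peak lies close to microRNA genes beyond the far end of the gene. The centre is 4.0 kb from MIR194-2, 4.19 kb from MIR192 and 1.99 kb from their host transcript MIR194-2HG, while MIR6750, inside ATG2A, is 2.93 kb away. In AMBRA1 the microRNA genes MIR3160-1 and MIR3160-2 lie 7.76 kb from the peak. Among the other pathway genes without a peak, VPS16, a tethering subunit for fusion with the lysosome, came closest at 13.8 kb. These genes were picked after their distances were seen.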
